A study of Mus musculus with 6 samples.

Results

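Cholesterol and lipoprotein handling was examined at 9 genes in adult mouse microglia, the resident macrophages of the brain. The genes are the efflux transporters Abca1 and Abcg1, the uptake receptor Lrp1, the lysosomal sterol carriers Npc1 and Npc2, the lipoprotein component Apoe, and the transcription factors Nr1h3, Pparg and Srebf1. The measure was chromatin accessibility by ATAC-seq, an assay whose transposase Tn5 cuts DNA where chromatin is open. The peaks of these genes were those whose midpoint was nearest to an end of one of them among protein-coding genes, within 100 kb, or lay inside its span. By this rule 24 of the 12105 genotype-specific peaks belonged to the 9 genes, 17 from the knockout list and 7 from the control list.

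The knockout group, cKO, was Mir137loxP/loxP;Tmem119-CreERT2, and the control group, cWT, was Mir137+/+;Tmem119-CreERT2, so both carried the tamoxifen-inducible recombinase driven from the microglial gene Tmem119. All mice were C57BL/6J, aged 8 weeks, and both groups received tamoxifen on 7 days in a row from 7 to 8 weeks of age. Each genotype had 3 libraries of about 50000 sorted microglia, and the series gives n = 4 mice without saying which animals went into which library. The series asks which transcriptional regulators gain activity when microglia lose miR-137. The deposited files hold 1 list of specific peaks per genotype and no values per library, so neither the spread between replicates nor the depth is known, and every count below compares 2 lists rather than animals. A peak near a gene is not shown to act on that gene. As a check of the microglial label, the identity genes Tmem119, P2ry12 and Sall1 had a cKO-specific peak, P2ry12 also had cWT-specific ones, and Cx3cr1 and Csf1r had none, which is no measure of how pure the sorted cells were.

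Macrophages take up lipoproteins and cell debris, free the cholesterol in the lysosome, and pass it out to lipoprotein particles. LRP1 brings in ApoE-containing particles, NPC2 and NPC1 hand cholesterol on across the lysosomal membrane, and ABCA1 and ABCG1 export it to ApoE and other acceptors. LXR alpha, encoded by Nr1h3, senses oxysterols and drives Abca1, Abcg1, Apoe and Srebf1 together with RXR. PPAR gamma, encoded by Pparg, is a lipid-sensing receptor that acts upstream of LXR alpha in macrophages, and SREBP-1, encoded by Srebf1, drives fatty acid synthesis. Microglia use these genes when they clear myelin and other lipid-rich debris.

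Of the 7 members with listed gene starts, Abca1 and Srebf1 had a specific peak whose midpoint lay within 1000 bp of one, and the 250 bases before those starts are shown because these peaks lie closest to a promoter. The sequences are from RefSeq, GRCm38.p6, on the strand of the gene, with capitals marking the motifs found there by a search of both strands. In Abca1 (chr4:53159896-53160145, minus strand) these were 2 GC boxes GGGCGG and 1 E-box CACGTG, and in Srebf1 (chr11:60210472-60210721, minus strand, before the innermost of its 3 listed starts) 2 GC boxes. The cKO-specific Abca1 peak lay 936 bp downstream of the start and 641 bp outside the window shown. The cWT-specific Srebf1 peak lay 415 bp upstream of the start and began 16 bp beyond the window. The third sequence is the mature microRNA whose gene was deleted, with its seed, bases 2 to 8, in capitals.
Abca1: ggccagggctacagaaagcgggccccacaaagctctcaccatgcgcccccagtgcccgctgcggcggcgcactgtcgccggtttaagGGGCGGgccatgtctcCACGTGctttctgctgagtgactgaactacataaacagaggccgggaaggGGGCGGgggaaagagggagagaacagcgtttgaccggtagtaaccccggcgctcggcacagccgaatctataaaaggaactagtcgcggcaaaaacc
Srebf1: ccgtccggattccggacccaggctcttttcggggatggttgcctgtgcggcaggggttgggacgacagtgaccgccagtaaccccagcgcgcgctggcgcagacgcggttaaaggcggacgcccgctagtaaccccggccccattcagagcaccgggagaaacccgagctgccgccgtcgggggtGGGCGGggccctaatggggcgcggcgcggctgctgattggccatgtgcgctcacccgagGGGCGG
mmu-miR-137-3p: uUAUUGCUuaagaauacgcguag

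Promoter windows of 250 bases before to 50 bases after a start were listed for 7 of the 9 members (14 windows; Abcg1 and Npc1 had no entry). The GC box was in 7 of these 14 windows and in 46.2% of the 21263 windows of protein-coding genes. The E-box was in 1 (Abca1) against 7.84%. The nuclear receptor half-site AGGTCA was in 2, both of Pparg, against 14.7%. The C/EBP motif TTGCNNAA was in 2 (Npc2 and Pparg) against 10.2%. No member window held the sterol regulatory core TCACCCCAC (0.536% of all windows), the AP-1 motif TGANTCA (6.99%) or the PU.1 motif GAGGAAGT (3.13%). A direct repeat of 2 half-sites 4 bases apart, the form bound by LXR with RXR, was searched with up to 1 mismatch in each AGGTCA unit. It was in 0 member windows and in 1.52% of all windows. Repeats with more mismatches in a unit were not counted, such as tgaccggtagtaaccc in the Abca1 sequence above and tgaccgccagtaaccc in that of Srebf1, read on the opposite strand. The 0 therefore does not show that the member windows lack a site for LXR. For the repeat 1 base apart, bound by PPAR with RXR, the numbers were 0 and 2.09%. The complement of the miR-137-3p seed, AGCAATA, was in 0 of the 14 windows and in 1.69% of all. These windows lie mostly before the start, so the 0 says nothing on whether miR-137 pairs with the members' transcripts. This motif was added to the search after the peaks had been seen. Matches are descriptions of these letters in these windows, and overlapping motifs were each counted. The peaks' own sequences were not analysed here.

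The 2 efflux transporters carried 9 cKO-specific peaks and 1 cWT-specific peak, where the cKO list holds 71.2% of all listed peaks. ABCA1 moves cholesterol and phospholipid onto lipid-poor apolipoproteins. Abca1 (gene ID 11303, chromosome 4, 53030789 to 53159988) had 4 cKO-specific and 0 cWT-specific peaks. The peak next to its start, 53158665 to 53159254, was 590 bp wide and had an authors' signal of 28.3, higher than 91.9% of cKO-specific peaks by rank. Its p-value in the authors' list was 0.771. Deeper in the gene lay a peak at 53134045 to 53134179 (signal 19.6, p-value 0.842), 25783 bp downstream of the start, and one at 53110436 to 53110677 (14.1, 0.894), 49339 bp downstream. The fourth, at 53228019 to 53228270 (18.1, 0.844), lay outside protein-coding genes, 68249 bp upstream of the start. With all annotated genes in the search, this peak was no longer nearest to Abca1. The signal was thus highest at the peak nearest the promoter and lowest at the one deepest in the gene. A further cKO-specific peak nearest Abca1, at 53269877 to 53270219 (18.4, 0.811), fell just outside the rule at 110060 bp from the gene. From cWT none came closer than 144395 bp.

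ABCG1 exports cholesterol to lipoprotein particles that already carry lipid. Abcg1 (gene ID 11307, chromosome 17, 31057694 to 31117984) had the most peaks of the 9 genes, 5 cKO-specific and 1 cWT-specific, but 2 and 0 among peaks from the median score of their list up; Abca1 then had 1 and 0. The peak with the lowest p-value among the 17 cKO-specific member peaks was at 31039644 to 31040043 (signal 20.1, p-value 0.401) and ranked 645 of 8615 by p-value. It lay outside protein-coding genes, 17851 bp beyond the lower-coordinate end of Abcg1. Inside the gene, the peak at 31075841 to 31076082 (16.3, 0.569) followed at rank 1396. The other 3 were among the weakest of the cKO list: 31060782 to 31061155 (6.88, 0.934), 31089983 to 31090235 (9.60, 0.945) and 31090756 to 31090904 (9.32, 0.958) stood at the 1.24, 10.8 and 9.24 percentiles of signal. The cWT-specific peak, 31100535 to 31100827 (10.8, 0.963), lay inside the gene 9630 bp from the nearest of these. The Abcg1 cKO-specific peaks held 5 of the 8 peak numbers from the first to the last of them in the cKO list. What the 3 missing numbers between them stand for is not stated. The Abca1 peaks held 4 of 16 numbers and the Lrp1 peaks 4 of 9, but both ends of such a stretch are specific by construction. These shares therefore cannot be read against the 25.8% over the whole numbering.

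**Figure D1:**
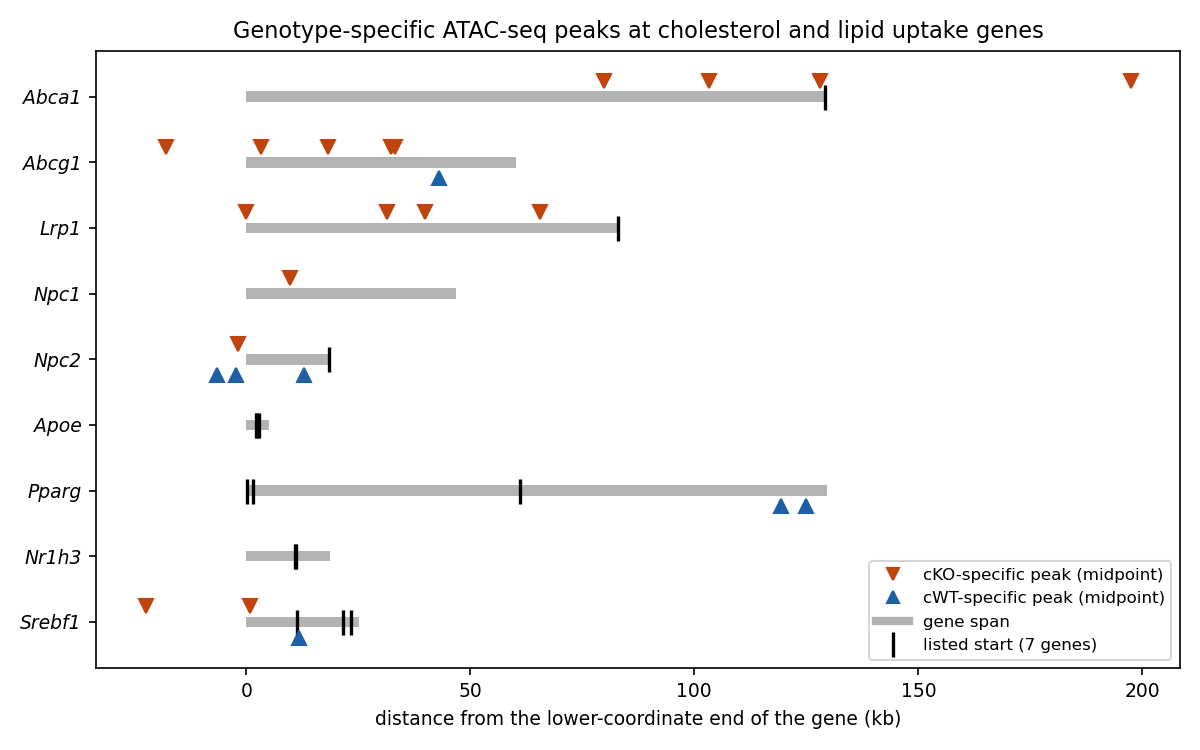
Positions of the 24 specific peaks along the 9 genes. The x axis is the distance in kb of each peak's midpoint from the gene's lower-coordinate end, grey bars are gene spans, black ticks are the listed starts of 7 genes, and triangles are cKO-specific (above) and cWT-specific (below) peaks. Abca1 and Lrp1 have 4 cKO-specific peaks and 0 cWT-specific peaks each, Pparg has 2 cWT-specific peaks near its end, and Apoe and Nr1h3 have none.

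LRP1, a large endocytic receptor of lipoproteins, also had cKO-specific peaks and no cWT-specific one. Lrp1 (gene ID 16971, chromosome 10, 127538157 to 127621148, minus strand) held all 4 within its span. The one with the lowest p-value was at 127603520 to 127603771 (signal 17.4, p-value 0.531), 17503 bp downstream of the start. Those at 127577896 to 127578321 (15.1, 0.780) and 127569545 to 127569791 (14.0, 0.873) lay further in. The peak at 127537998 to 127538411 (15.0, 0.769) straddled the end of the gene, with its midpoint 47 bp from that end and 82944 bp from the start. The 4 signals lay close together, between the 35.3 and 55.3 percentiles of the cKO list, and no specific peak was within 1000 bp of the Lrp1 start. From cWT none came closer than 110323 bp.

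NPC2 is the soluble protein that picks up cholesterol in the lysosome, and Npc2 (gene ID 67963, chromosome 12, 84754559 to 84773112, minus strand) was the member with the most cWT-specific peaks, 3, against 1 cKO-specific peak. Counted inside the gene's span alone it had 1 cWT-specific and 0 cKO-specific peaks, fewer than the 2 cWT-specific peaks of Pparg. A cWT-specific peak at 84752051 to 84752503 and the cKO-specific peak at 84752512 to 84752938 lay 8 bp apart beyond the gene's downstream end, with midpoints 448 bp from each other. The cWT-specific one had a signal of 18.2 and a p-value of 0.403, rank 125 of 3490. The cKO-specific one had 19.8 and 0.446, rank 802 of 8615. The best-ranked cWT-specific Npc2 peak and the only cKO-specific one were thus in the same stretch, 2282 and 1834 bp from the gene. It was the 1 place among the members where peaks of both lists had midpoints within 1 kb, and no member peak overlapped a peak of the other list. The other cWT-specific peaks were at 84747939 to 84748197 (17.4, 0.729), further out, and at 84767354 to 84767553 (16.4, 0.880), inside the gene 5659 bp downstream of its start.

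NPC1 is the membrane protein that receives cholesterol from NPC2. Npc1 (gene ID 18145, chromosome 18, 12189694 to 12236506) had 1 cKO-specific peak, 12199301 to 12199552 (signal 18.0, p-value 0.838), inside its span. That peak was nearest to an end of the overlapping gene Rmc1, 751 bp away, and belongs to Npc1 only through the clause on the span. The closest peak of the cWT list was 248484 bp off.

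Apoe, which encodes the main lipoprotein component made by glia, had 0 specific peaks in either list. Apoe (gene ID 11816, chromosome 7, 19696244 to 19701310) is the shortest of the 9 genes and lies in a dense gene cluster, where neighbours take the nearest peaks. The nearest cKO-specific peak, 19693539 to 19693728 (signal 13.9, p-value 0.880), was 2611 bp from Apoe and 974 bp from Apoc1, an apolipoprotein gene to which it was assigned. A pair of adjoining cKO-specific peaks lay inside Apoc2, which encodes an activator of lipoprotein lipase, at 19675870 to 19676069 and 19676070 to 19676343, with the same signal of 19.2. The nearest cWT-specific peak, 43454 bp away, was assigned to Nectin2, a cell adhesion gene. Within 150000 bp of Apoe 8 cKO-specific and 3 cWT-specific peaks were assigned to other genes, so the count of 0 says only that none was nearest to Apoe or inside it.

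The 3 transcription factor genes each had a different pattern. Pparg (gene ID 19016, chromosome 6, 115360879 to 115490404, plus strand) had 2 cWT-specific and 0 cKO-specific peaks, both inside the gene towards its downstream end. The peak at 115480007 to 115480618 was the widest of the 24, at 612 bp, with a signal of 18.8 and a p-value of 0.739. The peak at 115485679 to 115486105 had 11.0 and 0.947. They were 58246 and 63826 bp downstream of the nearest of 3 listed starts and carried consecutive numbers in the cWT list. The nearest cKO-specific peak was 176405 bp from Pparg.

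Srebf1 (gene ID 20787, chromosome 11, 60199084 to 60224186, minus strand) had 2 cKO-specific peaks and 1 cWT-specific peak. The cWT-specific peak, 60210738 to 60211035, is the one beside the sequence shown above. It had the highest signal of the 7 cWT-specific member peaks, 28.1, the 94.4 percentile of its list, and a p-value of 0.486, rank 199 of 3490. A cKO-specific peak at 60199700 to 60200227 (signal 18.8, p-value 0.765) lay inside the downstream end of the gene, 766 bp from an end of Rai1, a neighbouring gene that overlaps Srebf1 there. The other, at 60176437 to 60176825 (18.4, 0.954), lay inside Rai1, 22453 bp from Srebf1. The cWT-specific peak, too, was nearer to an end of Rai1 than to one of Srebf1, so both peaks inside Srebf1 count for it through the span. The control list thus held the peak near a listed start, and the knockout list those at and beyond the other end.

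Nr1h3 (gene ID 22259, chromosome 2, 91184061 to 91202829, minus strand) had 0 specific peaks. No cKO-specific peak lay closer than 254944 bp. Within 150000 bp there were 3 cWT-specific peaks of other genes. Of these, 91136660 to 91136859 (signal 6.55) and 91132079 to 91132381 (9.66) were assigned to Mybpc3, a sarcomere gene. The third, 91086392 to 91086636 (9.79, p-value 0.768), was 97547 bp from Nr1h3 and 4140 bp from Spi1, the gene of the myeloid factor PU.1. Their signals were at or below the 19.4 percentile of the cWT list.

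**Figure D2:**
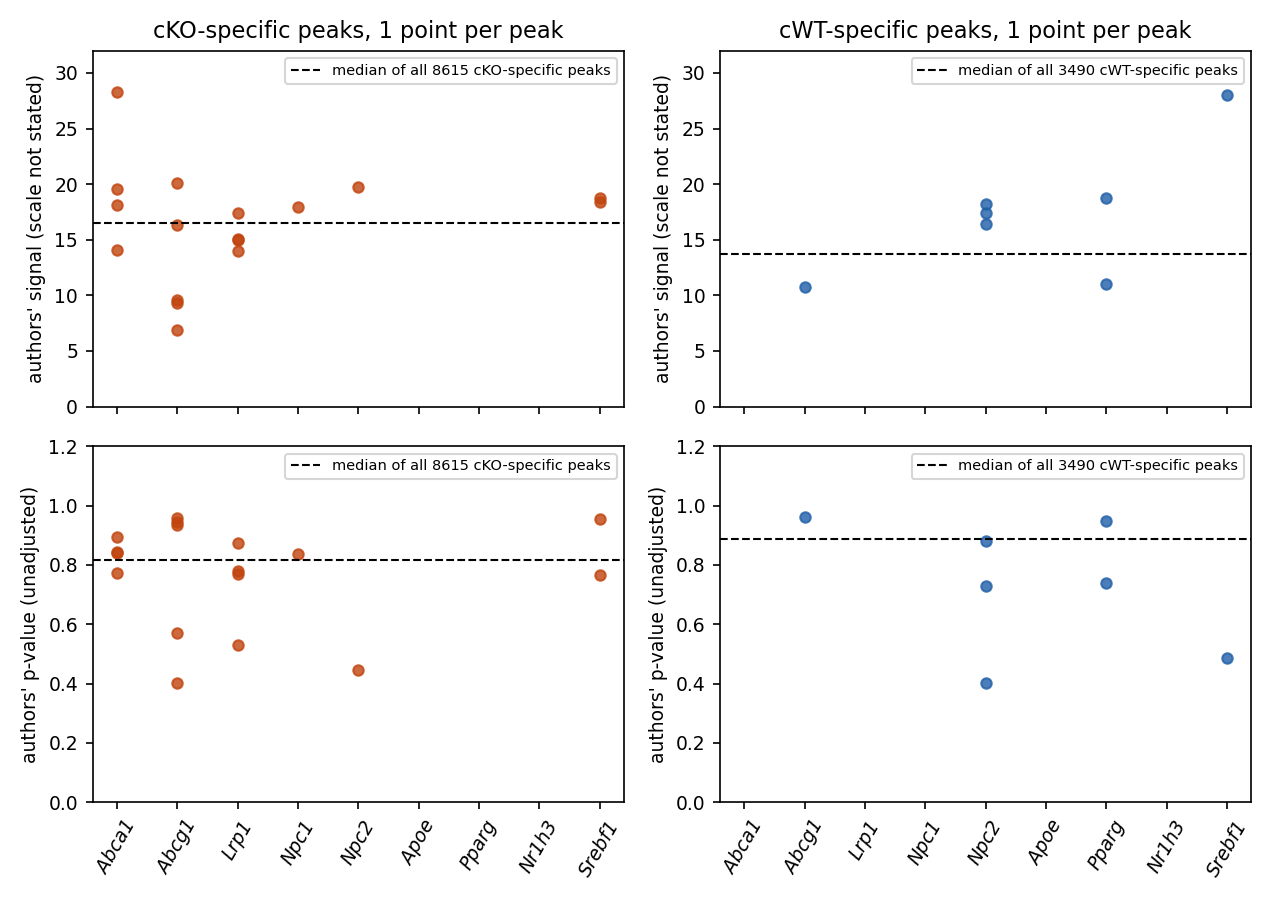
Authors' signal (upper panels, scale not stated) and unadjusted p-value (lower panels) of each member peak, by gene, for the cKO list (left) and the cWT list (right). Each point is 1 peak and the dashed line is the median of the whole list; the highest signals are 28.3 at Abca1 in cKO and 28.1 at Srebf1 in cWT, and no p-value is below 0.401.

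Across the 9 genes, 6 had a cKO-specific peak and 4 had a cWT-specific peak. Among all 21887 protein-coding genes the shares by the same rule were 23.8% and 12.3%. The median number per gene was 1.0 cKO-specific and 0 cWT-specific peaks in the members, and 0 of each over all protein-coding genes. The members' spans ranged from the 23.2 percentile of coding gene length (Apoe) to the 92.0 percentile (Pparg). A longer gene can hold more peaks, and the part of length in these counts was not tested. At least 4 cKO-specific and 0 cWT-specific peaks were found at Abca1 and Lrp1 and at 0.672% of coding genes, 147 in all. Abca1 met this only through its peak 68156 bp from the gene, and had 3 cKO-specific peaks with windows of 10 or 50 kb. At least 2 cWT-specific peaks and more of them than cKO-specific ones were found at Npc2 and Pparg and at 1.66% of coding genes. These last 2 conditions were set after the members' counts were known, so the shares only place the counts among other genes. The same pair of counts as Abca1 and Lrp1 occurred at 92 coding genes besides these 2, that of Abcg1 at 26 others, and that of Npc2 at 23 others.

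The balance of the 2 lists at the members lay near that of the lists as a whole. Of the 24 peaks 70.8% were cKO-specific (exact Clopper-Pearson 95% interval 48.9 to 87.4, counting error only), and of all 12105 peaks 71.2%. Abcg1 was the 1 member with at least 5 peaks, the minimum for the test of single genes. Its 83.3% of cKO-specific peaks (interval 35.9 to 99.6) compared with 71.3% over all assignments of peaks to genes (exact binomial test, two-sided, p = 0.681, adjusted p = 1 over 375 genes). By this test 0 of the 375 genes (0%) passed an adjusted p of 0.05, and 12 had an unadjusted p below 0.05. With 6 peaks, even 6 of 6 from cKO would give an exact p of 0.192, so the test cannot place Abcg1 apart, and at Abca1 and Lrp1 4 of 4 leaves an interval of 39.8 to 100%.

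The member peaks had low scores, as most listed peaks did. None was named primary by the authors, against 243 of the 8615 cKO-specific and 48 of the 3490 cWT-specific peaks. In the authors' deposited table every cKO-specific member peak had an adjusted p of 0.979 and every cWT-specific one 0.981. The lowest authors' adjusted p was 0.194 in the whole cKO list and 0.231 in the whole cWT list. No listed peak of either genotype was thus below 0.05 by that value. A p-value of at most 0.5 was met by 2 of the 17 cKO-specific member peaks (12.1% of all cKO-specific peaks), at Abcg1 and Npc2, and by 2 of the 7 cWT-specific ones (6.16% of all), at Npc2 and Srebf1. The median signal of the members was 17.4 in cKO, where the list's median was 16.5, and 17.4 in cWT, where it was 13.7. The 2 lists' signals have no stated common scale and were not compared. The rule takes in any peak inside a member, and 13 of 17 in cKO and 5 of 7 in cWT lay inside, where 62.5% and 64.4% of all assigned peaks lay inside a gene they were assigned to. Their widths ranged from 135 to 590 bp in cKO (median 253, list 314) and from 200 to 612 bp in cWT (median 298, list 322).

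The other genes of the pathway were read from 7 lists with 84 genes, none of them a member. A cKO-specific peak was present at 40 of them (47.6%, against 23.8% of all coding genes) and a cWT-specific peak at 15 (17.9%, against 12.3%), and 39 had neither. Of the 45 with a peak, 30 had only cKO-specific peaks, 5 only cWT-specific ones and 10 had both. Over the 6433 coding genes with a peak these shares were 58.0%, 18.9% and 23.1%. Gene length was not matched, and no list was tested. Among efflux partners 8 of 13 genes had a cKO-specific and 1 a cWT-specific peak. Osbp, which encodes an oxysterol-binding lipid transfer protein, had 4 and 0 (cKO-specific first, here and below), of which the pair 12010949 to 12011653 and 12011654 to 12012582 on chromosome 19 adjoin. For Scarb1, which encodes the HDL receptor, the counts were 3 and 0. Gramd1b, which encodes a sterol carrier of the endoplasmic reticulum, had 3 and 1, and its cWT-specific peak (chromosome 9, 40414458 to 40414715) had a signal of 25.1 and a p-value of 0.203.

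Of 16 uptake genes beside Lrp1, 9 had a cKO-specific and 4 a cWT-specific peak, with more genes from the cKO list as over all coding genes. Mylip, an LXR-induced ubiquitin ligase gene whose product removes lipoprotein receptors, had 5 and 1. Sorl1, a sorting receptor gene, had 4 and 0, 3 of them inside the gene. Among 9 genes of apolipoproteins and lipoprotein enzymes, 4 had a cKO-specific peak and 2 a cWT-specific one, and Apoc2 had the most, 2 and 0.

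**Figure D3:**
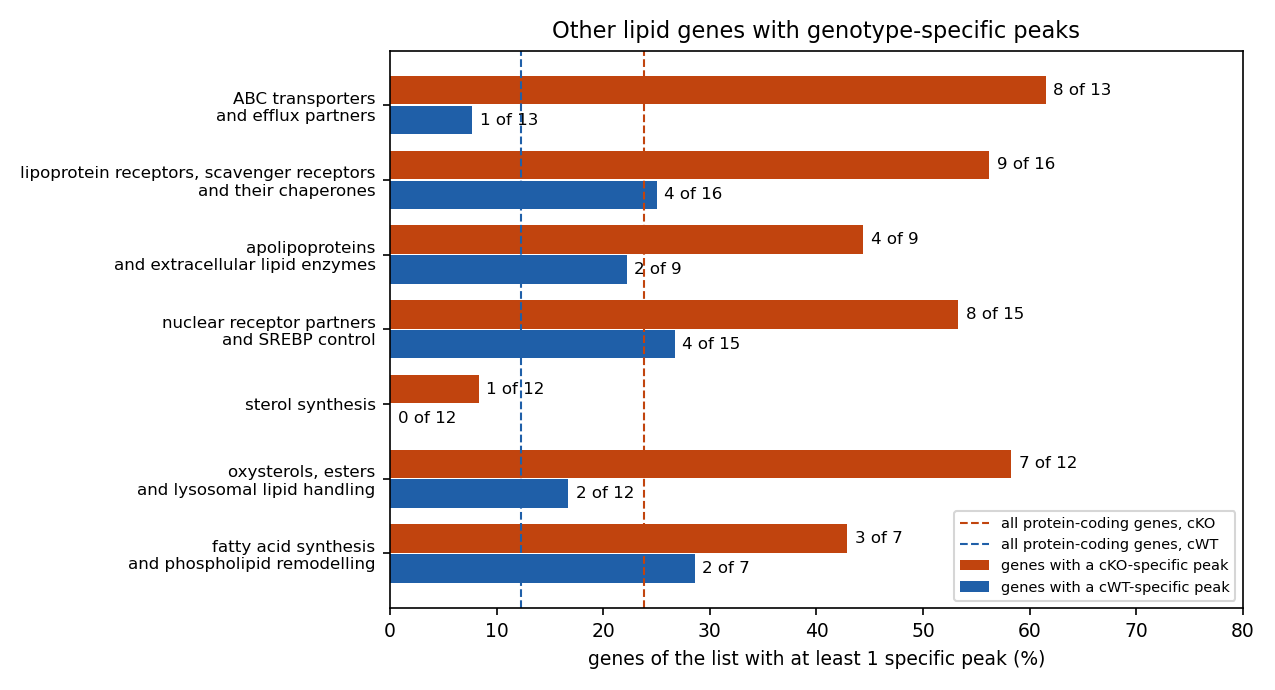
Share of the genes of each of 7 other lipid gene lists with at least 1 cKO-specific or cWT-specific peak, in percent, with the number of genes beside each bar and dashed lines for all protein-coding genes (23.8% and 12.3%). The sterol synthesis list has 1 of 12 genes with a cKO-specific peak and 0 of 12 with a cWT-specific one, and the efflux partners have 8 of 13 and 1 of 13.

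Partners of the member transcription factors had peaks of both lists, at 8 of 15 genes for cKO and 4 of 15 for cWT. Over all coding genes the shares were 23.8% and 12.3%, to be set beside this list and those below. Ppara had 1 and 2, 62981 to 64475 bp from the nearer end of the gene, and Rxrg 2 and 1. Nr1h2, the gene of LXR beta, had 0 in both lists, and so had Srebf2. Sterol synthesis genes had the fewest, with 1 of 12 (8.33%) carrying a cKO-specific peak and none of the 12 a cWT-specific one. Whether so short a list differs from all coding genes was not tested. Among 12 genes of oxysterols, esters and lysosomes, 7 had a cKO-specific and 2 a cWT-specific peak. Nceh1, a cholesteryl ester hydrolase gene, had 4 and 0, all inside the gene, and Plin2, a lipid droplet coat gene, had 3 and 0. Of 7 genes of fatty acid synthesis and phospholipid remodelling, 3 had a cKO-specific and 2 a cWT-specific peak. Lpcat3, an LXR target gene of phospholipid remodelling, had 4 and 0, all inside the gene, and Acaca, an SREBP-1 target gene, had 2 and 1.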

How the data were processed

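Peaks of 6 ATAC-seq libraries, 3 per genotype, were used as 2 deposited lists, 1 per genotype. The submitters' processing notes name HOMER 4.11, MACS2 2.2.7.1, Bowtie2 2.4.4 and the build GRCm38 (mm10). The role of each tool, the handling of replicates, any Tn5 shift and the rule for specific peaks are not given in these sources. A deeper set of libraries can lengthen a list, and depth is unknown. The lists have no header. The score the authors deposited equals -125 times log2 of the p-value, rounded down, in all 8615 and 3490 peaks. The columns taken as signal, p-value and adjusted p-value, as the authors deposited them, were read from layout and values, and what the p-value tests is not stated. Percentiles and ranks are within a list.

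Gene spans, without exons, and starts came from RefSeq tables of GRCm38.p6. Every peak was assigned to all coding genes by the rule given for the members, which placed 11499 of 12105. The exact binomial test was run over all genes with at least 5 peaks, with Benjamini-Hochberg adjustment. It was also tried on simulated data with more peaks per gene than observed, which does not show its power at the observed counts. Named genes were the members, the genes holding or nearest to their peaks, genes of the pathway lists with at least 3 peaks, and the gene with the most in each list; Nr1h2 and Srebf2 were added after their counts were seen. The results of some genes that the rule names are not reported here. The members and lists were chosen with earlier results of these data known. Alternatives covered the window, the span clause, the gene set, the peak's position, merging within 500 bp, the score and the p-value. Python 3.11.15, numpy 2.4.6, pandas 2.3.3, scipy 1.17.1, statsmodels 0.14.6 and matplotlib 3.10.9 were used.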

Additional observations from a re-analysis of the deposited data

How the results depend on the processing

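No paired analysis was possible because the deposited lists give nothing per library, and for the same reason no replicate could be left out. Windows of 10 and 50 kb, the nearest end alone, the span alone, all annotated genes, peak edges and merging kept the members' peaks between 18 and 24 and the other counts over the 9 genes within 1.5 times. With each list kept from its median score up, 13 member peaks remained, 8 of them cKO-specific; Abca1 went from 4 to 1 cKO-specific peak, Abcg1 from 5 and 1 to 2 and 0, Npc1 from 1 to 0 and Pparg from 2 to 1 cWT-specific. At p-values up to 0.5, 4 remained, 2 cKO-specific at 2 genes and 2 cWT-specific at 2 genes; Abca1, Lrp1, Npc1 and Pparg then had 0, Abcg1 had 1 and 0, Npc2 1 in each list, and Srebf1 0 cKO-specific and 1 cWT-specific. Abca1 had 3 cKO-specific peaks within 10 and 50 kb, with the span alone and with all annotated genes. Srebf1 had 1 in each list within 10 kb, with the span alone and by score. With the span alone Npc2 had 0 cKO-specific and 1 cWT-specific peak. Without the span clause Npc1 had 0 and Srebf1 1 and 0. Pairs of both lists numbered 0 by overlap and 1 by midpoints within 1 kb. The binomial test called 0 genes in each of its 3 alternatives, with 9 to 12 genes at an unadjusted p under 0.05.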

Other observations

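Peaks of both lists also lay side by side at 3 of the 84 other lipid genes, where midpoints were within 1 kb, and none of these pairs overlapped. At Mylip, on chromosome 13, the cKO-specific peak 45358257 to 45358570 (signal 25.8, p-value 0.576) and the cWT-specific peak 45358613 to 45358837 (26.6, 0.684) were 42 bp apart. Both stood high within their own lists, at the 87.8 and 92.9 percentiles of signal, and both lay outside the gene, 31329 and 31017 bp from its nearer end. The highest signal among the cKO-specific peaks of the named lipid genes was also at Mylip, 41.4 at the cKO-specific peak 45372360 to 45372581, which is 222 bp wide. At Ppara the gap between the nearest cKO-specific and cWT-specific peaks was 279 bp, and at Elovl6, a fatty acid elongase gene, 21 bp. Together with the 8 bp gap beyond Npc2, these are places where peaks of both lists lay close together without overlapping. Whether each is 1 region called with different borders was not tested, since the unlisted peaks and the libraries' own signal were not used here.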
